A study of Mus musculus with 2 samples.

Results

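The aminoacyl-tRNA synthetases are the enzymes that load each tRNA with its amino acid. Their transcripts are described here in transformed mouse bone marrow cells, with or without the drug that keeps a Hoxa9 fusion in the nucleus. The members were the rows of the authors' deposited Cuffdiff table whose gene name equalled a listed synthetase symbol. All 36 listed symbols were found among the 23235 rows of the table, and the authors had tested all 36. A symbol ending in 2 was counted as mitochondrial, which gave 16 mitochondrial and 20 cytosolic genes.

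Cytosolic synthetases charge the tRNAs that feed the ribosomes of the cytosol, and a separate set, encoded in the nucleus and imported, serves the ribosomes of mitochondria. Gars and Kars each make enzyme for both compartments, but their symbols put them with the cytosolic group here. Several cytosolic synthetases sit in a multisynthetase complex held together by scaffold proteins. Many cytosolic synthetase genes are also known targets of Atf4, the transcription factor of the amino acid response, which binds C/EBP-ATF response elements together with a C/EBP partner.

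The cells came from lineage-depleted bone marrow of C57B6 mice and carried a pair of MIGR1 retroviruses, HA-Hoxa9-ER and Flag-Meis1. Hoxa9-ER is Hoxa9 fused to a hormone-binding domain of an estrogen receptor, so that 4-hydroxytamoxifen (4OHT) keeps it in the nucleus. All cells had been transformed in culture with IL3 and 4OHT at 100 nM. After 3 washes they were grown for 72 h in 100 nM 4OHT (the 4OHT condition) or in ethanol, its vehicle (the EtOH condition). Each condition was 1 sample, labelled as 2 biological replicates, with 1 FPKM value per gene. The values below therefore have no replicate error of their own. FPKM counts read fragments normalised for transcript length and library size. The labels do not say whether the replicates were separate animals or cultures. Both conditions share the retroviruses and the earlier 4OHT, and neither is an untransduced control.

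Summed over the table, FPKM came to 544802 (4OHT) and 591496 (EtOH), and the read depth is unknown. Of 9 progenitor markers, 5 fell and 1 rose, with a summed level of 529 FPKM in 4OHT and 290 FPKM in EtOH, and Mecom was listed at 0 in both. All 8 neutrophil markers rose, from a sum of 1048 to 20190 FPKM, or from 0.192% to 3.41% of all FPKM. Eosinophil markers (3 of 4 rose) went from a sum of 126 to 4667 FPKM, and basophil and mast cell markers (5 of 5 rose) from 783 to 3325 FPKM. Of 5 monocyte and macrophage markers, 3 rose and 1 fell, with sums of 249 and 154 FPKM. The 6 lymphoid markers and 3 of 5 stroma markers stayed under 0.1 FPKM in both conditions. Of the other stroma markers, Pdgfrb fell from 7.99 to 1.74 FPKM, and Col1a1, which was not tested, had 0.0212 and 0.190 FPKM. The 3 erythroid markers in the table, of which 1 rose and 1 fell, summed to 4.64 and 2.33 FPKM. The part of this change in cell state in the synthetase results was not tested, and in bulk RNA fewer cells of a type and less RNA per cell cannot be told apart.

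Transcripts of 8 of the 20 cytosolic synthetases fell after 4OHT was withdrawn, none rose, and none of the 16 mitochondrial synthetases passed in either direction. "Rose" and "fell" are used for genes whose q-value in the authors' deposited table did not exceed 0.05, and all p-values and q-values below are from that table. The 8 genes were Farsb, Iars, Mars, Farsa, Nars, Wars, Hars and Vars, which were lower in EtOH by 24.3% to 35.9%. Among all 11865 genes the authors tested, 22.5% were called, 10.5% as lower in EtOH and 12.0% as higher. The called share was thus 40% of the cytosolic genes against 10.5% of all tested genes. Of the 2751 tested genes whose 4OHT level lay in the range of the cytosolic synthetases, 24.7 to 147 FPKM, 14.0% were called as lower.

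Direction was shared more widely than the calls. The value was lower in EtOH for 19 of 20 cytosolic and 14 of 16 mitochondrial synthetases (19 of 20 and 11 or 15 of 16 when EtOH was rescaled), against 56.7% of all tested genes. The median log2 change, computed as log2((FPKM EtOH + 1)/(FPKM 4OHT + 1)), was -0.33 for the cytosolic and -0.26 for the mitochondrial genes. The median over all tested genes was -0.05, with quartiles of -0.25 and 0.18. Tested genes in the level range of the cytosolic synthetases had a median of -0.10, and 63.9% of them were lower in EtOH.

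**Figure D1:**
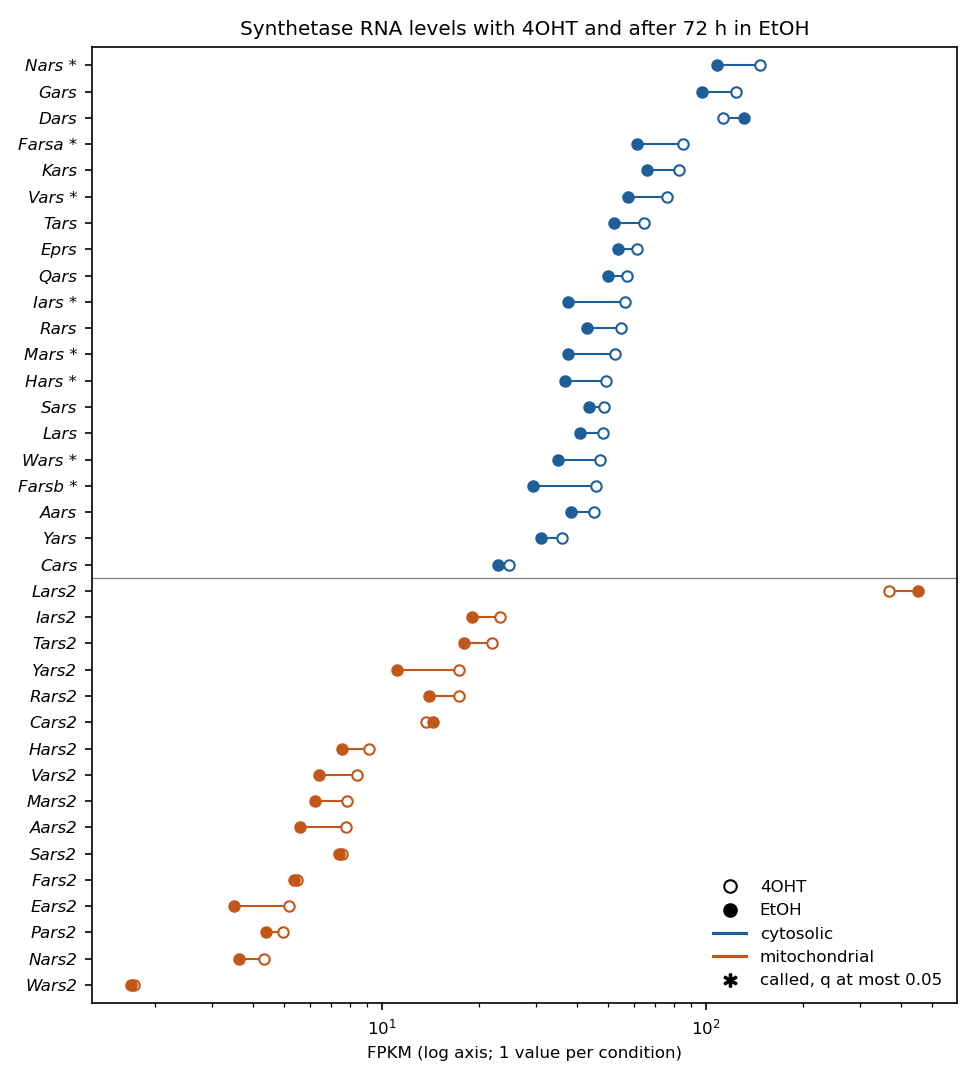
FPKM level of each of the 36 synthetases in 4OHT and in EtOH, 1 value per condition on a log axis, with cytosolic and mitochondrial genes set apart. The cytosolic genes lie between 22.8 and 147 FPKM and the mitochondrial genes at or under 23.1 FPKM, except Lars2 at 367 and 451 FPKM.

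Both subunits of cytosolic phenylalanyl-tRNA synthetase fell. Farsb, the gene of the beta subunit (chromosome 1, 78421411 to 78485421, mm9), had 45.8 FPKM in 4OHT and 29.4 FPKM in EtOH. The EtOH level was 64.1% of the 4OHT level, with a 95% interval of 51.8% to 79.1% taken from the authors' test statistic. This is a log2 ratio of -0.64 ± 0.16, where the error is the standard error (SE) implied by that statistic, and the q-value in the authors' deposited table was 0.000345. Farsa, the gene of the alpha subunit that carries the catalytic site (chromosome 8, 87380885 to 87393156, mm9), had 85.0 and 61.5 FPKM, a log2 ratio of -0.47 ± 0.15 (q = 0.00875 in the authors' deposited table). The enzyme is built of equal numbers of both subunits, while the FPKM ratio of Farsa to Farsb was 1.85 in 4OHT and 2.09 in EtOH.

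Iars, which makes isoleucyl-tRNA synthetase of the multisynthetase complex (chromosome 13, 49777499 to 49829636, mm9), was next in size. Its level was 56.4 FPKM in 4OHT and 37.7 FPKM in EtOH, or 66.9% of the 4OHT level with an interval of 55.2% to 81.1%. The log2 ratio was -0.58 ± 0.14 (q = 0.000384 in the authors' deposited table). Farsb and Iars were thus the most strongly lowered of the called members. The 250 bases before their RefSeq starts (GRCm38.p6, a later build than that of the deposited coordinates) are shown because each holds an E-box, CACGTG. This is a site bound by Myc, Usf and related factors. In the 250 bases before the start, 6.02% of all windows held it, Aars among them. Since the decreases guided the choice of both genes, it shows no link between site and decrease, which was not tested. The E-box is in capitals, and the bases run 5′ to 3′ along the gene's own strand.
Farsb, chr1:78488898-78489147, minus strand: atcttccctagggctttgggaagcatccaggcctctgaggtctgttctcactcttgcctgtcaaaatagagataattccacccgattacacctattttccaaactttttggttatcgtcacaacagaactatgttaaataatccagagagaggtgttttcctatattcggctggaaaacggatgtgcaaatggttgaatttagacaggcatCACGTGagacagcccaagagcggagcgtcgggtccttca
Iars, chr13:49681880-49682129, plus strand: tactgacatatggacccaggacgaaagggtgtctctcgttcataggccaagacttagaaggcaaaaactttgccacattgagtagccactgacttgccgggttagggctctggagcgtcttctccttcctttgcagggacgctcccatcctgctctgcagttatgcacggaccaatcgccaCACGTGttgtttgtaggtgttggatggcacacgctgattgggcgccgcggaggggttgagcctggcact

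Mars makes methionyl-tRNA synthetase, another enzyme of the complex, which also charges the initiator tRNA (chromosome 10, 126727849 to 126748842, mm9). It had 52.6 and 37.5 FPKM in 4OHT and EtOH, a log2 ratio of -0.49 ± 0.16 (q = 0.0107 in the authors' deposited table). Its locus overlaps that of Ddit3, the stress factor Chop, whose row went the other way in value, from 25.6 to 31.4 FPKM (q = 0.651). How fragments were assigned between overlapping genes is not given in the sources used here.

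Nars, for asparaginyl-tRNA synthetase on chromosome 18, was the highest cytosolic member, at 147 FPKM in 4OHT and 108 FPKM in EtOH. Its log2 ratio was -0.44 ± 0.16 (q = 0.0321 in the authors' deposited table). Wars, for tryptophanyl-tRNA synthetase (chromosome 12, 110098240 to 110132384, mm9), an enzyme known to be induced by interferon, had 47.1 and 35.0 FPKM. Its log2 ratio was -0.43 ± 0.16 (q = 0.0362 in the authors' deposited table). Both therefore lost about the same share of their level despite different starting levels, 26.5% for Nars and 25.7% for Wars.

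Hars, for histidyl-tRNA synthetase on chromosome 18, had 49.1 FPKM in 4OHT and 36.9 FPKM in EtOH. The log2 ratio was -0.41 ± 0.15 (q = 0.0336 in the authors' deposited table). Vars, for valyl-tRNA synthetase (chromosome 17, 35137852 to 35153274, mm9), had 75.8 and 57.4 FPKM, a log2 ratio of -0.40 ± 0.14 (q = 0.0234). These were the smallest decreases that the authors' test called among the synthetases.

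Gars lay just outside the threshold. It makes glycyl-tRNA synthetase for the cytosol and for mitochondria (chromosome 6, 54987995 to 55029498, mm9), and its level was 124 FPKM in 4OHT and 97.7 FPKM in EtOH, a log2 ratio of -0.35 ± 0.14 (q = 0.0569 in the authors' deposited table). Kars, for lysyl-tRNA synthetase and likewise shared by both compartments, had 83.0 and 66.1 FPKM (log2 ratio -0.33 ± 0.16, q = 0.141). Rars, for the arginyl enzyme, had 54.8 and 43.1 FPKM (q = 0.0810), and Tars, for the threonyl enzyme, 64.3 and 52.1 FPKM (q = 0.120). These 4 genes had intervals wholly below no change, as the 8 called genes did, which makes 12 of 20 cytosolic members. Of the tested genes in their level range, 21.3% were lower in EtOH at an unadjusted p-value under 0.05.

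The other 8 cytosolic members had intervals that included no change. Their EtOH levels ran from 85.0% of the 4OHT level in Aars, for the alanyl enzyme (45.3 and 38.5 FPKM, log2 ratio -0.23 ± 0.15, q = 0.283 in the authors' deposited table), to 116% in Dars. Dars, for the aspartyl enzyme of the complex (chromosome 1, 130260284 to 130313993, mm9), was the only cytosolic member with a higher value in EtOH, 113 FPKM in 4OHT and 132 FPKM in EtOH. Its log2 ratio was 0.22 ± 0.17 (q = 0.400 in the authors' deposited table). Between them lay Lars, Eprs, Qars, Yars, Sars and Cars, for the leucyl, glutamyl-prolyl, glutaminyl, tyrosyl, seryl and cysteinyl enzymes. Cars had the lowest level of the cytosolic group, 24.7 FPKM in 4OHT and 22.8 FPKM in EtOH (log2 ratio -0.12 ± 0.18, q = 0.745). Yars was the next lowest, with 35.98 FPKM in 4OHT and 31.0 FPKM in EtOH (log2 ratio -0.21 ± 0.15, q = 0.358). Values were thus lower in EtOH at both ends of the cytosolic level range, with Dars as the exception.

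**Figure D2:**
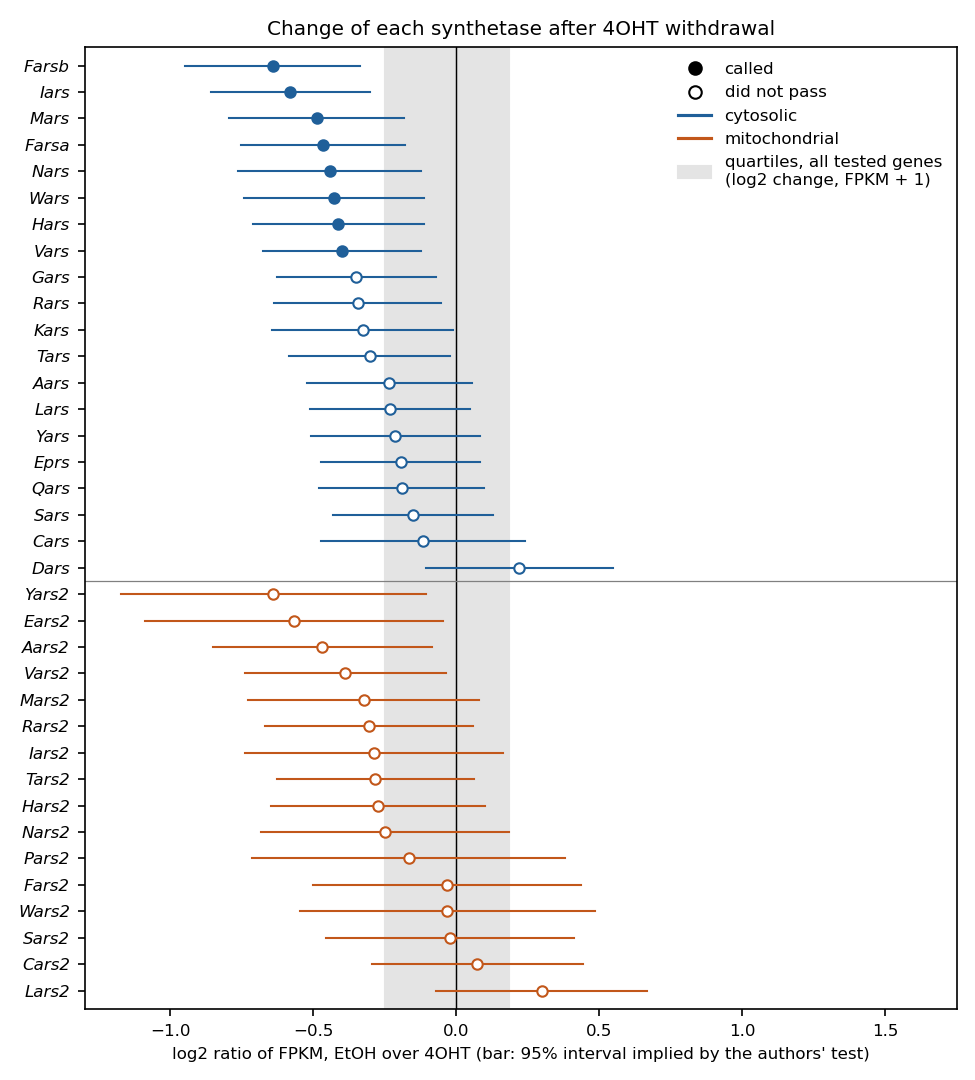
Log2 ratio of FPKM, EtOH over 4OHT, for each synthetase (points) with the 95% interval implied by the authors' test statistic (bars); filled points were called and the grey band spans the quartiles of all tested genes, -0.25 to 0.18, on the log2(FPKM + 1) scale. The 8 filled points are all cytosolic, and most mitochondrial bars are wider than the cytosolic ones, though that of Cars exceeds those of Tars2 and Vars2.

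Among the mitochondrial synthetases 0 of 16 were called by Cuffdiff, where 9.68% of the 6489 tested genes in their level range without Lars2, 1.72 to 23.1 FPKM, were called as lower. At an unadjusted p-value under 0.05 in the authors' deposited table there were 4, all lower in EtOH, against 14.6% of the genes in that level range and 15.8% of all tested genes. Yars2, for the mitochondrial tyrosyl enzyme, had 17.3 FPKM in 4OHT and 11.1 FPKM in EtOH, a log2 ratio of -0.64 ± 0.27 (q = 0.0743). This was as low a ratio as that of Farsb, with a wider error. Ears2, for the glutamyl enzyme, had 5.18 and 3.49 FPKM (log2 ratio -0.57 ± 0.27, q = 0.114). Aars2, for the alanyl enzyme, had 7.75 and 5.60 FPKM (log2 ratio -0.47 ± 0.20, q = 0.0666), and Vars2, for the valyl enzyme, 8.41 and 6.43 FPKM (log2 ratio -0.39 ± 0.18, q = 0.107).

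Most mitochondrial ratios were less precise than the cytosolic ones. The implied SE of the log2 ratio ran from 0.141 to 0.182 in the cytosolic and from 0.175 to 0.279 in the mitochondrial group, so the ranges overlapped. Level alone did not order them, since Lars2, the highest member, had an SE of 0.188. The highest p-value among all called genes in the authors' deposited table was 0.0113. At the median SE of each group, a cytosolic gene therefore had to be lower by 23.0% to be called (0.38 on the log2 scale) and a mitochondrial gene by 31.3% (0.54). A decrease of more than 0.54 was measured in 2 cytosolic genes, Farsb and Iars, and in 2 mitochondrial genes, Yars2 and Ears2. The SEs of Yars2 and Ears2, 0.272 and 0.266, were above the mitochondrial median of 0.214. Both therefore needed a larger decrease than 0.54 to be called, and neither passed. Whether the groups differ in their response was not tested, since the members are not replicates.

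The remaining mitochondrial members spanned a wide range of levels. After Lars2, the highest were Iars2 and Tars2, for the isoleucyl and threonyl enzymes. Iars2 had 23.1 FPKM in 4OHT and 18.9 FPKM in EtOH (log2 ratio -0.29 ± 0.23, q = 0.433 in the authors' deposited table), and Tars2 had 21.9 and 18.0 FPKM (log2 ratio -0.28 ± 0.18, q = 0.274). The lowest was Wars2, for the tryptophanyl enzyme, at 1.72 and 1.69 FPKM (log2 ratio -0.031 ± 0.26, q = 0.966), followed by Nars2, for the asparaginyl enzyme, at 4.33 and 3.64 FPKM (log2 ratio -0.25 ± 0.22, q = 0.497). Pars2, for the prolyl enzyme, had 4.95 and 4.41 FPKM (log2 ratio -0.17 ± 0.28, q = 0.763). Rars2, Mars2 and Hars2 had log2 ratios of -0.31, -0.32 and -0.27, while Fars2 and Sars2 were nearly level at -0.032 and -0.024 and Cars2 was higher in value at 0.07. These last 3, and Wars2, changed sign under a rescaling of EtOH. None of these 11 intervals excluded no change.

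Lars2, for mitochondrial leucyl-tRNA synthetase (chromosome 9, 123276058 to 123371782, mm9), stood apart from its group. It was listed at 367 FPKM in 4OHT and 451 FPKM in EtOH, a log2 ratio of 0.30 ± 0.19 (q = 0.287 in the authors' deposited table). In 4OHT that was 15.9 times the level of Iars2 and 2.50 times that of Nars. Lars2 made up 70.2% of the summed mitochondrial FPKM in 4OHT and 77.9% in EtOH, so the sum went from 523 to 579 FPKM with it and from 156 to 128 FPKM without it. Its transcript in GENCODE M21 shares a stretch of 52 bases (bases 3278 to 3329 of 3894) with Gm15564, a gene model of that release. The ribosomal RNA row Rn45s was at 378 and 522 FPKM, a log2 ratio of 0.47 ± 0.23 (q = 0.137). The part of ribosomal or shared sequence in the Lars2 level was not tested.

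Paired by symbol, 13 amino acids had 1 cytosolic and 1 mitochondrial gene each. Phenylalanine, with a pair of cytosolic subunit genes, is left out of these counts and of the median, and is given after them. So are glutamate and proline, since Eprs serves both and its symbol matches neither Ears2 nor Pars2. The cytosolic gene had the higher FPKM for 12 of 13 in both conditions, leucine being the exception (Lars at 0.131 times the level of Lars2 in 4OHT). The median of the level ratio was 5.38 in 4OHT and 4.89 in EtOH. Where the cytosolic gene was higher, the 4OHT ratio ran from 1.81 for cysteine to 34.0 for asparagine. For 11 of 13 amino acids the cytosolic gene had the lower log2 ratio of EtOH over 4OHT, and for alanine and tyrosine the mitochondrial gene did. For phenylalanine, Farsa had 15.5 times the level of Fars2 in 4OHT and 11.5 times in EtOH, and Farsb 8.37 and 5.48 times. The log2 ratios of both subunits were below that of Fars2. Eprs, at 61.6 FPKM in 4OHT and 53.8 FPKM in EtOH, was above Ears2 and Pars2 in level. Its log2 ratio, -0.20, was above that of Ears2, -0.57, and slightly below that of Pars2, -0.17.

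These pairwise differences were mostly within error. With both phenylalanine subunits set against Fars2, and Eprs left out, there were 15 pairs. The unadjusted 95% interval of the difference, taking the errors of both genes as independent, left out 0 in 2 of them. For Farsb minus Fars2 the difference of log2 ratios was -0.61 (-1.17 to -0.05), and for Lars minus Lars2 it was -0.53 (-0.99 to -0.07). For Hars and Hars2, which lie 74 bases apart on opposite strands of chromosome 18, it was -0.14 (-0.62 to 0.34).

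**Figure D3:**
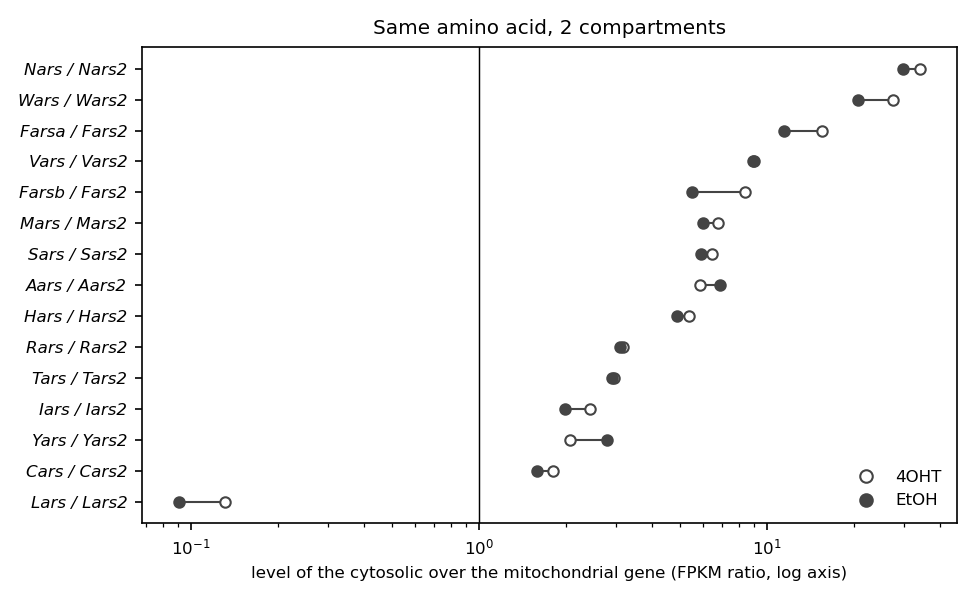
Ratio of the cytosolic to the mitochondrial FPKM level for each amino acid paired by symbol, on a log axis, in 4OHT (open) and EtOH (filled). The phenylalanyl enzyme appears once for each cytosolic subunit, and Eprs is not shown. All pairs lie to the right of 1 except Lars and Lars2, and the 4OHT ratio is highest for Nars over Nars2, at 34.0.

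Genes of both enzyme classes fell, and the counts below stand against 10.5% called as lower over all tested genes and 14.0% in the cytosolic level range. Class I synthetases, which share a Rossmann-fold catalytic domain, had 4 of 19 genes that fell and a median log2 change of -0.28. Class II synthetases, built on an antiparallel beta-sheet fold, had 4 of 17 and a median of -0.27. Within the cytosolic group, 2 of 8 enzymes of the multisynthetase complex fell (Iars and Mars; median -0.28), and 6 of 12 outside it (median -0.37). Of the complex's scaffold genes, Eef1e1 (Aimp3) fell from 59.5 to 37.1 FPKM (q = 0.000713 in the authors' deposited table). Aimp1 had 53.8 and 53.2 FPKM and Aimp2 had 32.0 and 25.4 FPKM, and neither passed.

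Calls fell both inside and outside the list of known Atf4 targets. Of the 12 cytosolic synthetases listed as Atf4 targets, 4 fell (Iars, Mars, Nars and Wars; median -0.26), and of the 8 not listed 4 fell (Farsa, Farsb, Hars and Vars; median -0.37). Atf4 itself was at 379 FPKM in 4OHT and 339 FPKM in EtOH (q = 0.518 in the authors' deposited table), and Asns, for asparagine synthetase, at 117 and 101 FPKM (q = 0.316). Of 30 genes of the Atf4 response, 7 fell and 3 rose, with a median log2 change of -0.22. Over all tested genes 10.5% fell and 12.0% rose. The share of the list that fell, 23.3%, was thus larger than that over all tested genes, and the share that rose was no larger. The called genes of the list with the largest changes went in both directions. Nupr1, a stress-induced chromatin protein, fell from 319 to 39.7 FPKM. Cth, of cysteine synthesis, rose from 6.77 to 16.1 FPKM, and Slc7a11, the cystine transporter, from 4.99 to 10.1 FPKM. Cebpb, a C/EBP factor of myeloid maturation, rose from 36.1 to 68.7 FPKM. The other members that fell were Vldlr, Psat1, Phgdh, Shmt2, Slc1a5 and Cebpg. Psat1, Phgdh and Shmt2 act in serine and glycine synthesis, and Psat1 went from 245 to 158 FPKM.

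Promoter windows from RefSeq (GRCm38.p6, 250 bases before to 50 after the start) were found for 27 of 36 members, 13 cytosolic and 14 mitochondrial. No window was matched for Cars, Hars, Hars2, Lars, Nars, Pars2, Rars, Vars and Wars. On both strands, the core of the C/EBP-ATF element, TGATGNAA, matched in 5 of 13 cytosolic and 0 of 14 mitochondrial windows, against 3.97% of all 32851 windows. The 32851 windows were not limited to genes tested here, so no motif share among tested genes is given. Matches are descriptions of the letters and not of bound sites. For each of the 5 genes 1 match is shown, because it marks which synthetase promoters carry the element, in 30 bases each with the match in capitals, 5′ to 3′ along the gene's strand. Positions count from the RefSeq start, where the first transcribed base is 1 and the base before it is -1.
Aars at 10 to 17, chr8:111033840-111033869, plus strand: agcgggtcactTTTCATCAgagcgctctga
Gars at -30 to -23, chr6:55037960-55037989, plus strand: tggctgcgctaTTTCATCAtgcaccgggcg
Iars at 8 to 15, chr13:49682126-49682155, plus strand: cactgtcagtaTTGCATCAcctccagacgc
Tars at -15 to -8, chr15:11399655-11399684, minus strand: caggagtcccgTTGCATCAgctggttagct
Yars at 4 to 11, chr4:129189895-129189924, plus strand: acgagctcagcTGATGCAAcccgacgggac

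Of the 5 genes with this element only Iars fell. Farsa, Farsb and Mars fell with windows that held no match, and Hars, Nars, Vars and Wars fell but had no window. The share called as lower was 40% of all cytosolic members and 10.5% of all tested genes. Whether the element goes with the calls was not tested. The log2 ratios of Aars, Gars, Tars and Yars were -0.23, -0.35, -0.30 and -0.21, and none of these passed. The E-box shown above in Farsb and Iars also matched in Aars, Tars and the mitochondrial Ears2, against 7.15% of all windows. Aars, Tars and Ears2 did not pass, and Farsa and Mars fell with windows that held no E-box. Aars, Iars and Tars thus held both motifs, without overlap between them.

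Other motifs were found in other members. The core of the Nrf1 site, GCATGCGC, which is common in nuclear genes of mitochondrial proteins, matched in 3 of 14 mitochondrial and 0 of 13 cytosolic windows, against 2.71% of all windows. The Ets site CCGGAAGT matched in Farsa, Mars and Rars2, against 3.89% of all windows. The 4 Nrf1 matches are shown because they lie in mitochondrial members. The Ets matches of Farsa and Mars, which fell, are shown, and that of Rars2, at -5 to 3, is not. Rars2 did not pass (q = 0.265 in the authors' deposited table), and Farsb and Iars fell without an Ets match. Since the calls guided this choice, it shows no link between site and decrease, which was not tested.
Rars2 at -51 to -44, chr4:34614895-34614924, plus strand: cggccccgtgtGCATGCGCactccacactt
Vars2 at -46 to -39, chr17:35667620-35667649, minus strand: gagtcttttacGCATGCGCctgcgtgtccc
Vars2 at -20 to -13, chr17:35667594-35667623, minus strand: tccccgcccacGCATGCGCgcgcacctcgc
Wars2 at -64 to -57, chr3:99141015-99141044, plus strand: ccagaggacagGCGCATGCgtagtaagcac
Farsa at -23 to -16, chr8:84856952-84856981, plus strand: gcgctatcgcgACTTCCGGttccagttccg
Mars at -30 to -23, chr10:127311798-127311827, minus strand: ccgcaccgtcaACTTCCGGgtctcgttggt

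**Figure D4:**
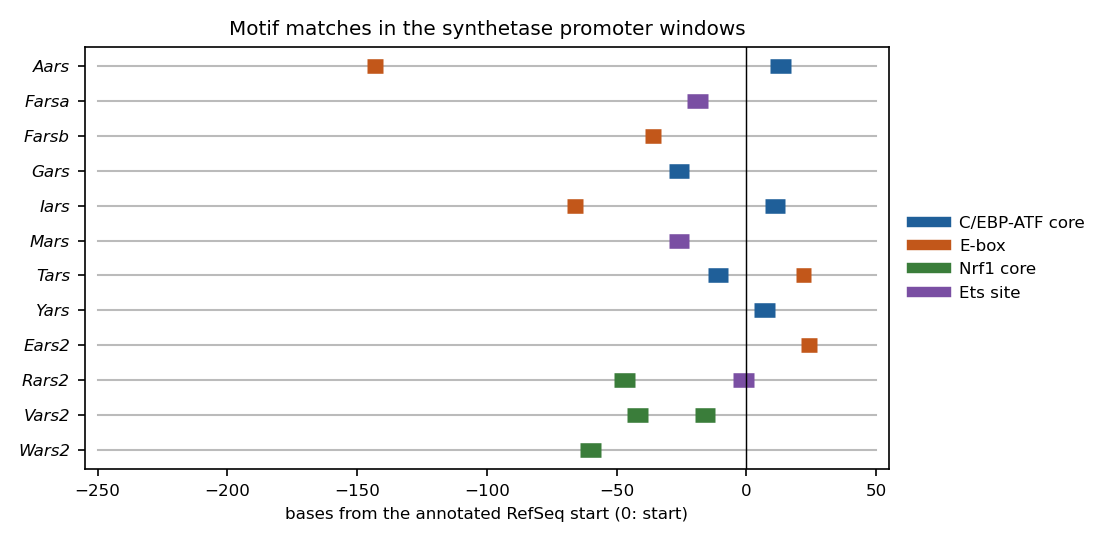
Position of the motif matches reported, in bases from the RefSeq start, in the promoter windows of the 12 synthetases that hold at least 1 of the searched motifs. C/EBP-ATF core matches (blue) appear in 5 cytosolic genes and Nrf1 core matches (green) in 3 mitochondrial genes.

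Most genes that work beside the synthetases had lower values in EtOH. Of 20 genes of tRNA charging and tRNA end processing, 3 fell, 0 rose and 19 were lower in value, with a median log2 change of -0.32. The exception was Tarsl2, a synthetase-like gene by its symbol that is not among the listed members. It had 4.83 FPKM in 4OHT and 6.38 FPKM in EtOH, a log2 ratio of 0.40 ± 0.20. In the authors' deposited table its unadjusted p-value was 0.0478 and its q-value 0.153. The counts of synthetases above leave Tarsl2 out. The 3 calls are 15% of the list, against 10.5% called as lower and 56.7% lower in value over all tested genes. Pus1, a tRNA pseudouridine synthase, fell from 27.4 to 18.8 FPKM. Xpot, the exportin that carries tRNA out of the nucleus, fell from 37.2 to 28.1 FPKM. Qrsl1, a subunit of the mitochondrial amidotransferase that makes glutaminyl-tRNA, fell from 5.43 to 3.25 FPKM. Their q-values in the authors' deposited table were 0.0441, 0.0226 and 0.0267.

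Translation factors of both compartments gave medians on the same side of 0. Of 37 cytosolic factors 8 fell and 0 rose, 21.6% called as lower against 10.5% of all tested genes, with a median log2 change of -0.17. Abce1, the ribosome recycling factor, fell from 63.7 to 40.8 FPKM, and Eif2b3, a subunit of the exchange factor of eIF2, from 15.9 to 10.4 FPKM. Eef1g, an elongation factor subunit, fell from 662 to 464 FPKM, and Gspt1, a termination factor, from 36.9 to 26.4 FPKM. The elongation factors Eef1a1, at 5027 and 4930 FPKM, and Eef2, at 1175 and 1202 FPKM, did not pass. Of 9 mitochondrial factors 2 fell, the elongation factors Tsfm (26.2 to 16.9 FPKM) and Tufm (40.9 to 29.6 FPKM), and all 9 were lower in value, with a median of -0.31. The 2 calls are 22.2% of that short list, against the same 10.5%. The median of the cytosolic synthetases, -0.33, was thus closer to those of the tRNA partners and mitochondrial factors than to that of the cytosolic factors.

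**Figure D5:**
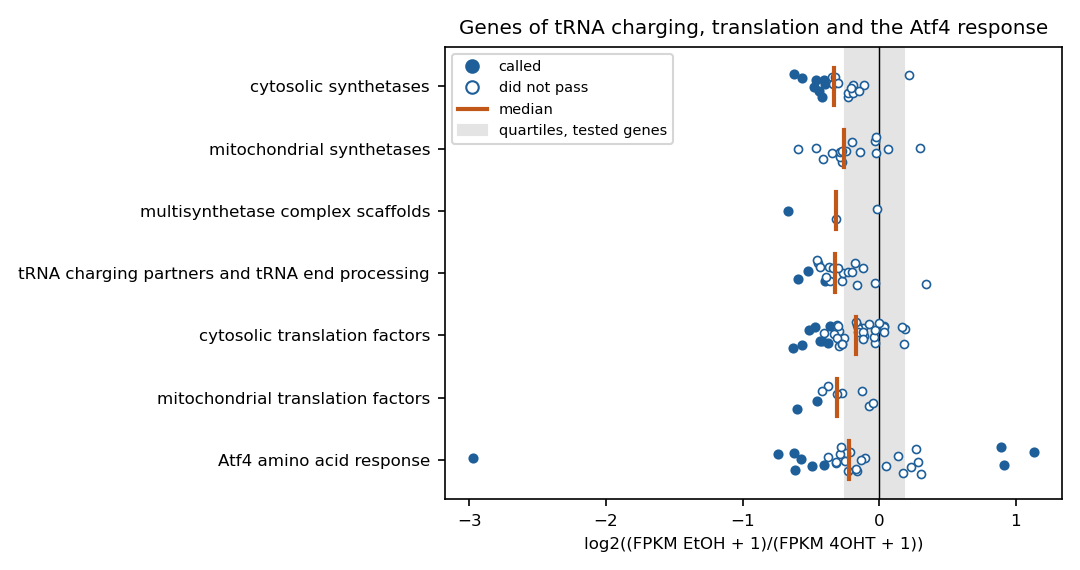
Log2 change of FPKM + 1, EtOH over 4OHT, of every gene in the synthetase groups and the related lists (points; called genes filled) with the median of each list. Medians lie between -0.17 for cytosolic translation factors and -0.33 for cytosolic synthetases, against -0.05 over all tested genes.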

How the data were processed

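RNA sequencing of 2 conditions, 4OHT and EtOH, was analysed from 1 table of 23235 genes. The build mm9 is named in the submitters' processing notes, as are the tools Cuffdiff 2.0.2, Bowtie2 2.0.0.7 and CASAVA 1.8.2. Not given in the sources used here are the annotation, the strand setting, the scaling and how the replicates of each label were combined. The authors' table holds, per the file headers, 1 FPKM value for each condition, a test statistic, a p-value, a q-value and a ratio with 4OHT below. That deposited ratio served only the stricter call of at least 1.5-fold. Where FPKM is scaled to the library total, more RNA from a few abundant genes lowers every other value. The depth is unknown.

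Adjusting the deposited p-values by Benjamini-Hochberg over 11865 tested genes gave the authors' q-values within 1.7e-06. The p-values matched a two-sided normal p of the deposited statistic within 2.8e-06, so the log2 ratio divided by that statistic gave an implied SE and a 95% interval. No test across samples was made, since each condition had 1 value, and the intervals, those of the differences between paired genes included, rest on the authors' statistic alone. Medians of the members and lists used all of their rows, and medians over all genes or a level range used only the tested genes. A pseudocount of 1 FPKM was added, and no further filter on low values was set.

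The members, lists and tests were chosen with earlier results of these data known. Named with full values were the called members, the 3 highest and 3 lowest levels of each compartment, and up to 4 called genes of each related list with the largest change. Genes outside this rule were named after their values were seen. Gatb was read from its older symbol Pet112l. Of the members, 4 loci overlapped another row (Aars, Iars2, Mars and Yars), and Aars shared over 10% of its 50-base words with other genes of GENCODE M21 (13.5%, chiefly Exosc6). A further promoter match is not reported here. The steps were tested on simulated data whose planted changes were larger than any of the synthetases, so recovery of changes of their size was not tested. Python 3.11.15, pandas 2.3.3 and scipy 1.17.1 were used. The alternatives were stricter calls, other pseudocounts, a filter at 5 FPKM, a pair of rescalings, members left out and a shorter promoter window.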

Additional observations from a re-analysis of the deposited data

How the results depend on the processing

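The cytosolic median stayed between -0.27 and -0.45, the mitochondrial median between -0.18 and -0.37, and their difference between -0.06 and -0.13 (-0.07 as reported) under every pseudocount, filter, rescaling and omission run. The calls depended on the threshold. With the q-value limit in the authors' deposited table lowered to 0.01, 3 synthetases were called, all cytosolic, and with a ratio of at least 1.5 added 1 was, Farsb. Leaving out loci that overlap another gene, chosen after seeing the data, gave 7 calls, without Mars, and leaving out Lars2, also chosen then, gave a mitochondrial median of -0.27. Scaling EtOH to the FPKM sum of 4OHT moved the median of genes of at least 5 FPKM from -0.06 to -0.17 and turned Cars2 to -0.042. Scaling that median to 0 turned Fars2, Sars2 and Wars2 to 0.029, 0.037 and 0.022, which left 11 of 16 mitochondrial and 19 of 20 cytosolic genes lower. Of all tested genes, 49.5% were lower under that scaling. With only the 250 bases before the start, TGATGNAA and CACGTG were each found in 11.1% of the members with a window, against 18.5% with the longer window, since matches after the start no longer counted. No paired analysis was possible because each condition had 1 value that combined its replicates, and for the same reason no replicate could be left out. The depth is unknown, and the widest intervals were those of mitochondrial genes.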
